A study of Danio rerio with 2 samples.

Results

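The genes described here encode proteins of DNA replication and of mitosis. They were chosen by name, with earlier results of these data known: 50 names were listed, 17 for S phase, in which DNA is copied, and 33 for mitosis, in which the copies are separated. Of these, 49 names were found in the name table, 46 as written and 3 (birc5a, prc1a and prc1b) under the symbol without the paralog letter, and incenp was not analysed here. Because the symbols mcm6 and rrm2 belong to 2 genes each, the names led to 51 genes of the 21699 in the deposited tables, 19 for S phase and 32 for mitosis. The genes prc1a and prc1b both carry the symbol prc1 and are given by Ensembl identifier.

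Messenger RNA was sequenced from kdrl:GFP+ cells of zebrafish (Danio rerio) embryos at 44 hours post fertilization, with 1 library from morphologically mutant embryos and 1 from morphologically normal siblings. Both came from crosses of Tg(kdrl:GFP) fish heterozygous for gbf1 tsu3994, an allele of a gene whose product activates ARF GTPases at the Golgi. In this transgene the kdrl promoter drives green fluorescent protein in endothelial cells, which line blood vessels, and positive cells were sorted by flow cytometry from whole dissociated embryos. Groups were formed by appearance, so the sibling library can hold both wild-type and heterozygous embryos, and each pools cells of embryos whose number is not given in the sources used here. There are no replicates, and every difference below compares these 2 libraries.

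In a dividing cell, origins of replication are loaded with the MCM helicase and later fired with Cdc45 and GINS, while ribonucleotide reductase and thymidylate synthase supply nucleotides. Entry into mitosis is driven by the kinase Cdk1 with its cyclins. The kinetochore then ties chromosomes to the spindle, the anaphase-promoting complex releases the sister chromatids, and a contractile ring divides the cell. Transcripts of the S phase set peak around the start of replication and those of the mitosis set later in the cycle, so in a mixed population both also follow the share of cells that are cycling. In bulk RNA, fewer cells of a kind and less RNA per cell cannot be told apart.

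The libraries held 6169373 expected counts for the mutant and 5657525 for the sibling. Expected counts are RSEM's estimates of fragments per gene, and FPKM is fragments per kilobase of gene, scaled to the fragments of the library. The 10 genes of highest mean FPKM took 27.7% of the mutant and 35.9% of the sibling counts. gbf1 itself had 364 and 161 expected counts in mutant and sibling (6.13 and 3.44 FPKM). Since the labels give no lesion, this does not check the genotype. Among endothelial markers, all 15 genes found from 18 listed names had at least 1.5 times the sibling's count share in the mutant library. This held for 25.7% of the 8641 genes compared below. Their summed levels were 284 FPKM in the mutant and 76.1 FPKM in the sibling for the 15 endothelial genes. The median of the 15 was 11.6 FPKM in the mutant and 3.91 FPKM in the sibling. Most of them therefore met the limit of 5 FPKM given below in the mutant library alone. Globins and other erythroid genes held 16.1% of the mutant and 21.1% of the sibling counts, so neither library holds RNA of endothelial cells alone. Whether this RNA came from sorted cells or was carried over was not tested.

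The main measure is the ratio of a gene's share of the mutant counts to its share of the sibling counts, with an exact 95% interval that covers counting error only. A gene was taken as differing when this ratio was 1.5 or more, or 1/1.5 or less. Only genes with 5 FPKM and 20 expected counts or more in either library were compared, 8641 in all. Of the 51 genes, 50 met these limits, 32 for mitosis and 18 for S phase. The exception was a second gene named mcm6 (ENSDARG00000033231), with 3 counts in the mutant and 1 in the sibling library.

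Mitosis genes took a smaller share of the mutant than of the sibling library. S phase genes took a slightly smaller one, which was not seen without the 2 genes named rrm2. Leaving these out was chosen after the values were seen. The wider list of 47 other S phase genes, given below, holds neither rrm2 gene but also took a smaller share. It held 0.194% of the mutant and 0.208% of the sibling counts, a ratio of 0.930 (0.907 to 0.954). The 32 mitosis genes held 0.520% of the mutant counts (exact 95% interval 0.514 to 0.526) and 0.640% of the sibling counts (0.633 to 0.646). For the 19 S phase genes the shares were 0.267% of the mutant (0.263 to 0.271) and 0.283% of the sibling counts (0.278 to 0.287). Summed levels were 1854 FPKM in the mutant and 2381 FPKM in the sibling for mitosis, and 1425 and 1555 FPKM for S phase. Over all genes they were 972100 and 1082000 FPKM, a ratio of 0.898, beside 0.779 for mitosis and 0.916 for S phase. By FPKM, mitosis genes thus took a smaller part of the mutant sum, and S phase genes did not. Within each library, the mitosis genes had 1.95 counts for each S phase count in the mutant and 2.26 in the sibling. The mutant value was 0.862 of the sibling value (0.839 to 0.885), and no scaling between the libraries changes this quotient. The 2 genes named rrm2 gave many of the S phase counts, and without them the quotient was 0.814 (0.789 to 0.840). The other S phase genes held 0.174% of the counts in both libraries, a ratio of 0.999 (0.972 to 1.027). Their summed levels were 861.9 FPKM in the mutant and 846.4 FPKM in the sibling. Of the 16 of them that met the limits, counting intervals lay wholly below 1 for 3 and wholly above 1 for 3, beside 8.99% and 46.1% of all genes.

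By gene, the median log2 ratio was -0.27 for mitosis and -0.04 for S phase, against 0.28 for all 8641 genes. The median gene was therefore 1.21 times as high in the mutant library, and a ratio near 1 already lies below it. A ratio under 1 was found for 28 of 32 mitosis genes and 10 of 18 S phase genes, beside 24.6% of all genes. Below the median gene lay 31 and 17 of them, against 50% by definition. At least 1.5-fold lower were 4 mitosis genes and no S phase gene, where 3.59% of all genes were. At least 1.5-fold higher was 1 S phase gene, gins1, and no mitosis gene, where 25.7% of all genes were. gins1 met the 5 FPKM limit in the mutant library alone (6.96 and 3.41 FPKM), so it was kept only through the library where it is high. At 2-fold, no mitosis or S phase gene was lower (1.31% of all genes) and gins1 alone was higher (9.58%). Counting intervals lay wholly below 1 for 23 mitosis and 5 S phase genes, beside 8.99% of all genes, many of which have fewer counts. Of the 576 pairs of a mitosis with an S phase gene, the mitosis gene had the lower ratio in 80.7%.

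**Figure D1:**
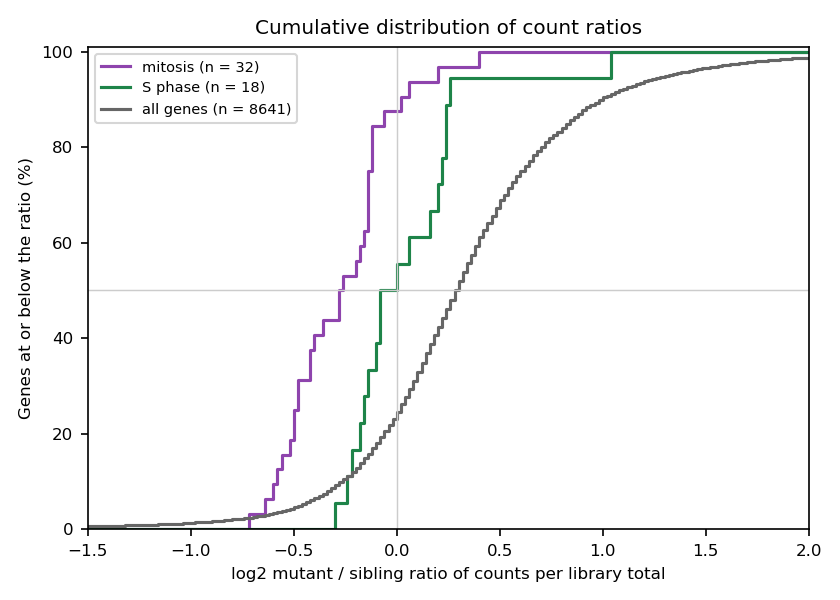
Cumulative share of genes (y axis, percent) at or below each log2 mutant/sibling ratio of counts per library total (x axis), for the 32 mitosis genes, the 18 S phase genes and all 8641 genes that met the limits. The mitosis curve lies left of the S phase curve and the S phase curve left of that of all genes, with medians of -0.27, -0.04 and 0.28.

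How large these differences are depends on what the libraries are scaled to. With TMM scaling, which sets most genes to about equal levels, the medians were -0.55 for mitosis and -0.32 for S phase, and 14 mitosis genes and no S phase gene were at least 1.5-fold lower, beside 9.02% of all genes. gins1 alone was higher (13.6% of all genes). Without the 10 highest genes in the totals, 12 mitosis genes were lower (6.17%) and gins1 higher (17.4%). The split over all genes moved as well, with 2224 higher and 310 lower by library total (87.8% of calls higher), 1175 and 779 by TMM (60.1%), 1160 and 809 by median of ratios (58.9%) and 1506 and 533 without the 10 highest genes (73.9%). TPM turned the S phase median to 0.07 and left the mitosis median at -0.12, with 2 of the 50 genes lower (2.14% of all genes) and 3 higher (33.4%). The gap between the medians, -0.23 in log2 units, is free of such scaling and ranged from -0.30 to -0.10 over the other measures, filters and gene sets tried.

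**Figure D2:**
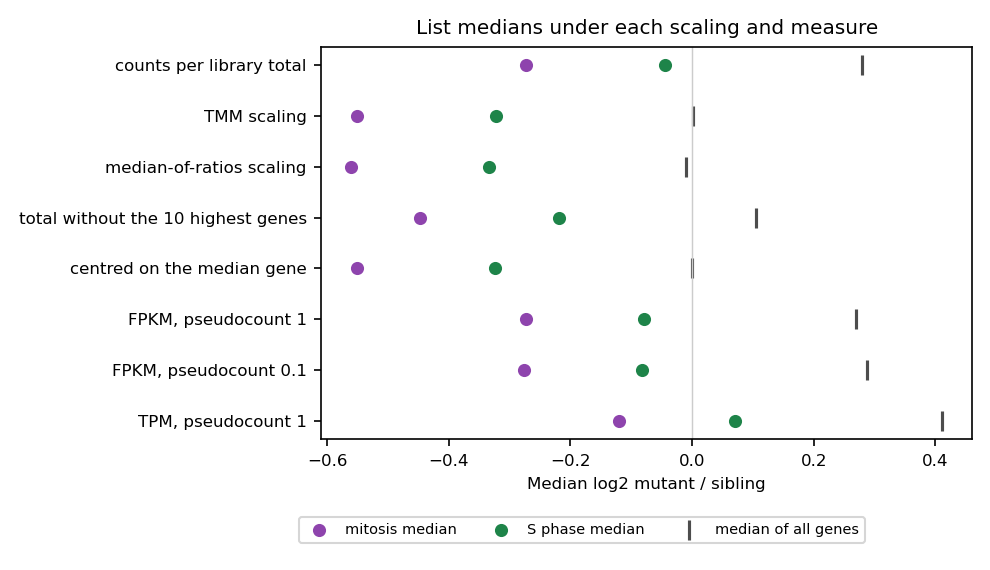
Median log2 mutant/sibling value (x axis) of the mitosis genes, the S phase genes and all genes that met the limits, under each scaling or measure (rows). The mitosis median lies left of the S phase median in every row and both lie left of the median of all genes, while their position relative to 0 moves with the scaling.

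The kinases that drive mitosis were all under a ratio of 1. cdk1, the kinase that starts mitosis, had 807 expected counts in the mutant and 1235 in the sibling library (94.8 and 158 FPKM). Its ratio of 0.599 (0.548 to 0.655) was the lowest of the 50 genes, and 2.30% of all genes had a lower one. Under TMM its ratio was 0.494. aurka, which matures the spindle poles, had 584 and 759 counts (0.706, 0.632 to 0.787). plk1, which acts at poles, kinetochores and the division site, had 1823 and 2246 counts (0.744, 0.699 to 0.792). Less low were aurkb, the kinase of the chromosomal passenger complex, at 0.818, and the checkpoint kinases ttk and bub1 at 0.876 and 0.910. The interval of bub1 held 1 (0.825 to 1.004).

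The cyclins that bind Cdk1 did not follow it as a set. ccna2, which acts from S phase into early mitosis, was lower at 931 and 1100 counts in mutant and sibling (0.776, 0.711 to 0.848). ccnb1 had 540 and 548 counts (0.904, 0.801 to 1.02). ccnb3 had 244 and 197 counts (1.14, 0.938 to 1.38), and ccnb2 had 151 and 106 counts (1.31, 1.01 to 1.69), the highest ratio of the mitosis genes. In FPKM ccnb2 stood at 18.5 in the mutant and 11.5 in the sibling, a wider gap than in counts, because its listed length was shorter in the mutant table (a ratio of 0.820). The intervals of all 4 cyclin genes lay above that of cdk1, the lowest of the 50 genes. So did those of other mitosis genes, such as plk1 and tpx2.

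The 3 kinetochore genes of the set had the lowest median ratio of the 7 mitosis roles, at 0.672. nuf2, part of the Ndc80 complex that grips microtubules, had 782 counts in the mutant and 1120 in the sibling (95.5 and 163 FPKM), a ratio of 0.640 (0.584 to 0.702). Its partner ndc80 had 556 and 726 counts (0.702, 0.628 to 0.785). cenpf, a large protein of the outer kinetochore, had 1091 and 1489 counts (0.672, 0.621 to 0.727). It lay just outside the 1.5-fold limit, while kif23 at 0.660 lay just inside. The other subunits of the Ndc80 complex, named after their values were seen, were spc25 at 0.783 (0.645 to 0.950) and spc24 at 0.868 (0.711 to 1.06). Further kinetochore genes, from the wider mitosis list, included cenph at 0.644 (0.375 to 1.09) and zwilch at 1.02 (0.744 to 1.41). No median was taken over the further kinetochore genes, so the low rank is given for the 3 genes alone.

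Genes of the spindle and of cell division ranged from 0.659 to 0.955. The 2 genes named prc1, whose product bundles microtubules in the spindle midzone, had ratios of 0.659 (0.587 to 0.740; ENSDARG00000100918, 506 counts in the mutant and 704 in the sibling) and 0.697 (0.609 to 0.798; ENSDARG00000005993, 384 and 505 counts). kif23, the midzone kinesin of centralspindlin, had 947 and 1316 counts (0.660, 0.606 to 0.718). racgap1, its partner in that complex, was at 0.754 (0.673 to 0.843). ect2 and anln, which act at the contractile ring, were closer to 1, with 452 and 434 counts (0.955, 0.835 to 1.09) and 1260 and 1294 counts (0.893, 0.826 to 0.966). Among spindle assembly genes tpx2 was at 0.739 (0.697 to 0.783), whereas kif11, the motor that pushes poles apart, and nusap1 were at 0.920 and 0.896.

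For exit from mitosis, cdc20, which activates the anaphase-promoting complex, had 480 counts in the mutant and 487 in the sibling (0.904, 0.795 to 1.03). espl1, the protease that cuts cohesin, had 843 and 863 counts (0.896, 0.814 to 0.986). birc5a, the survivin gene of the passenger complex, had 125 and 162 counts (0.708, 0.556 to 0.899). cdca8, borealin of the same complex and from the wider mitosis list, was as low at 0.652 (0.565 to 0.753), with 328 and 461 counts.

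Chromosome structure genes had a median ratio of 0.863 over 7 genes. Of the 5 condensin genes, which compact chromosomes, smc4 and smc2 were at 0.821 and 0.863, ncaph at 0.835 and ncapg at 0.912, all with intervals below 1. The fifth, ncapd2, had 1302 counts in the mutant and 1146 in the sibling (1.04, 0.962 to 1.13). top2a, the topoisomerase that untangles sister chromatids, had 1917 and 2464 counts (0.713, 0.672 to 0.758). mki67, the Ki-67 antigen that coats mitotic chromosomes and is a common proliferation marker, had 3390 and 3098 counts (65.1 and 64.6 FPKM). Its ratio of 1.003 (0.956 to 1.05) has one of the narrowest intervals of the set and does not overlap that of top2a or cdk1.

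**Figure D3:**
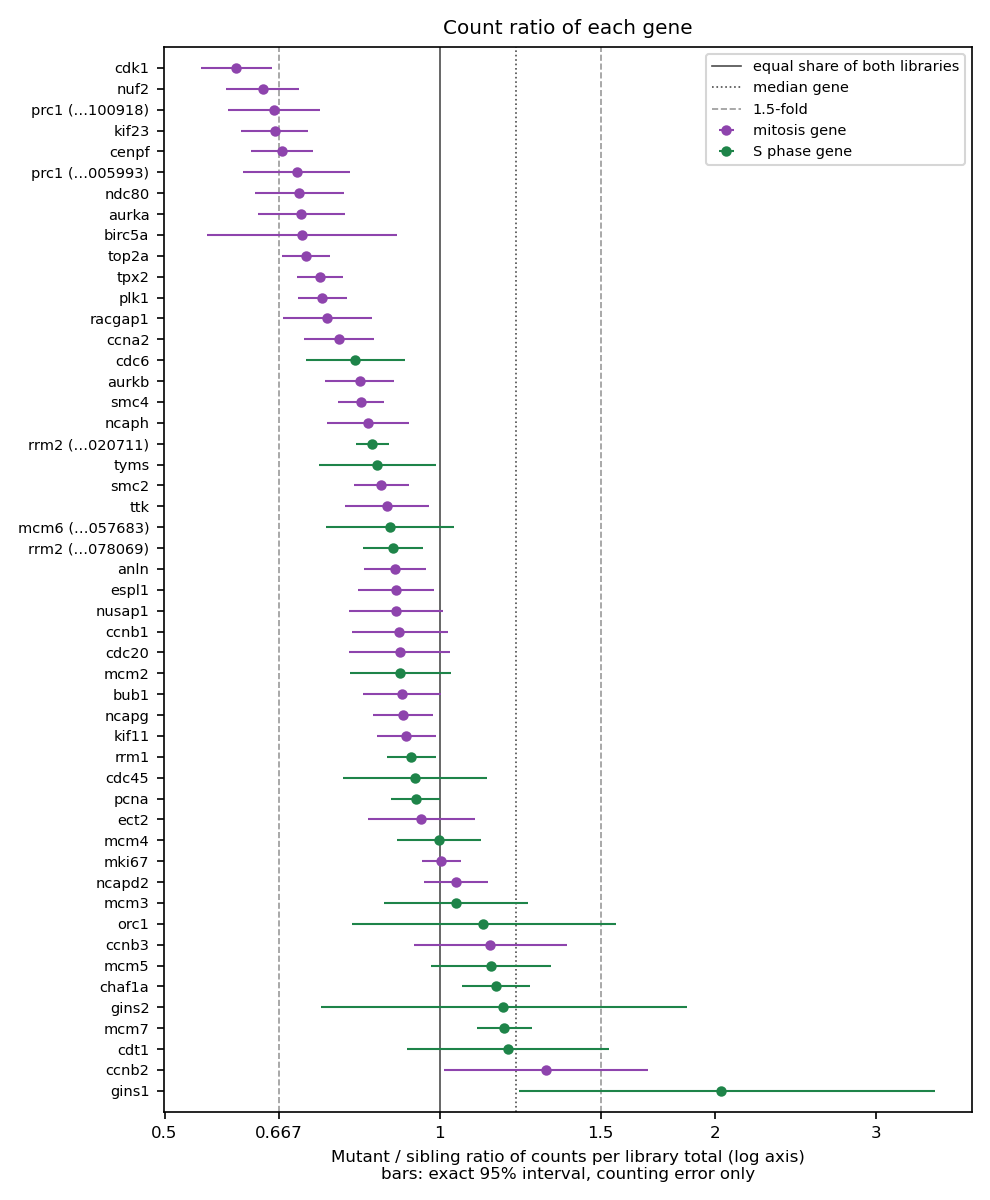
Mutant/sibling ratio of counts per library total (x axis, log scale) for each of the 50 genes that met the limits, ordered by ratio and marked as mitosis or S phase, with bars for the exact 95% interval of counting error. Labels in brackets give the last digits of the Ensembl identifier where genes share a symbol. The 14 lowest ratios, from 0.599 for cdk1 to 0.776 for ccna2, all belong to mitosis genes, and gins1 at 2.03 is the highest.

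In S phase, the MCM helicase genes lay on both sides of 1. mcm7 had 1822 counts in the mutant and 1419 in the sibling (209 and 166 FPKM; 1.18, 1.098 to 1.26) and mcm5 392 and 316 (1.14, 0.978 to 1.32). mcm3 and mcm4 were at 1.04 and 0.998, mcm2 at 0.906 (0.798 to 1.03) and the expressed mcm6 gene (ENSDARG00000057683) at 0.881 (0.751 to 1.04), with 302 and 314 counts. The helicase is built from equal numbers of its subunits, but per kilobase the transcript of mcm7 was many times that of mcm3 in both libraries (209 and 13.4 FPKM in the mutant, 166 and 12.8 FPKM in the sibling).

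Genes that license and fire origins had few counts and wide intervals. cdc6, which loads the helicase, was the lowest S phase gene, at 478 counts in the mutant and 542 in the sibling (0.809, 0.714 to 0.916). Its partner in loading, cdt1, had 145 and 112 counts (1.19, 0.921 to 1.53). cdc45 was at 0.940 (0.784 to 1.13). gins1, a subunit of the GINS complex that activates the helicase, had 51 and 23 counts (6.96 and 3.41 FPKM), a ratio of 2.03 (1.22 to 3.49). gins2 had 46 and 36 counts (1.17, 0.741 to 1.87). The remaining subunits, gins3 and gins4 of the wider list, were at 0.730 (0.530 to 1.001) and 0.949 (0.777 to 1.16). The interval of gins2 overlaps that of gins1, and those of gins3 and gins4 do not. orc1, of the complex that marks origins, showed 4.13 FPKM in the mutant and 9.77 FPKM in the sibling, but 84 and 69 counts (1.12, 0.802 to 1.56). Its listed length was 2.60 times as long in the mutant table, so its FPKM gives the opposite direction to its counts.

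All 4 genes of nucleotide supply had intervals below 1. The rrm2 gene ENSDARG00000020711, for the small subunit of ribonucleotide reductase, was the most abundant of all 50 genes, with 4379 counts in the mutant and 4759 in the sibling (459 and 593 FPKM; 0.844, 0.810 to 0.879). The second rrm2 gene (ENSDARG00000078069) was at 0.890 (0.825 to 0.960). These 2 genes have fractional counts, which shows that some reads were divided between genes. rrm1, the large subunit, had 2065 and 2035 counts (0.931, 0.875 to 0.990). tyms, thymidylate synthase, had 354 and 380 counts (0.854, 0.737 to 0.990). pcna, the sliding clamp of the polymerases, had 2080 and 2026 counts (231 and 244 FPKM; 0.941, 0.885 to 1.001). chaf1a, which places histones on new DNA, had 1180 and 939 counts (1.15, 1.06 to 1.26). Leaving out the rrm2 genes turned the S phase median to 0.03, and leaving out all shared symbols to 0.06.

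**Figure D4:**
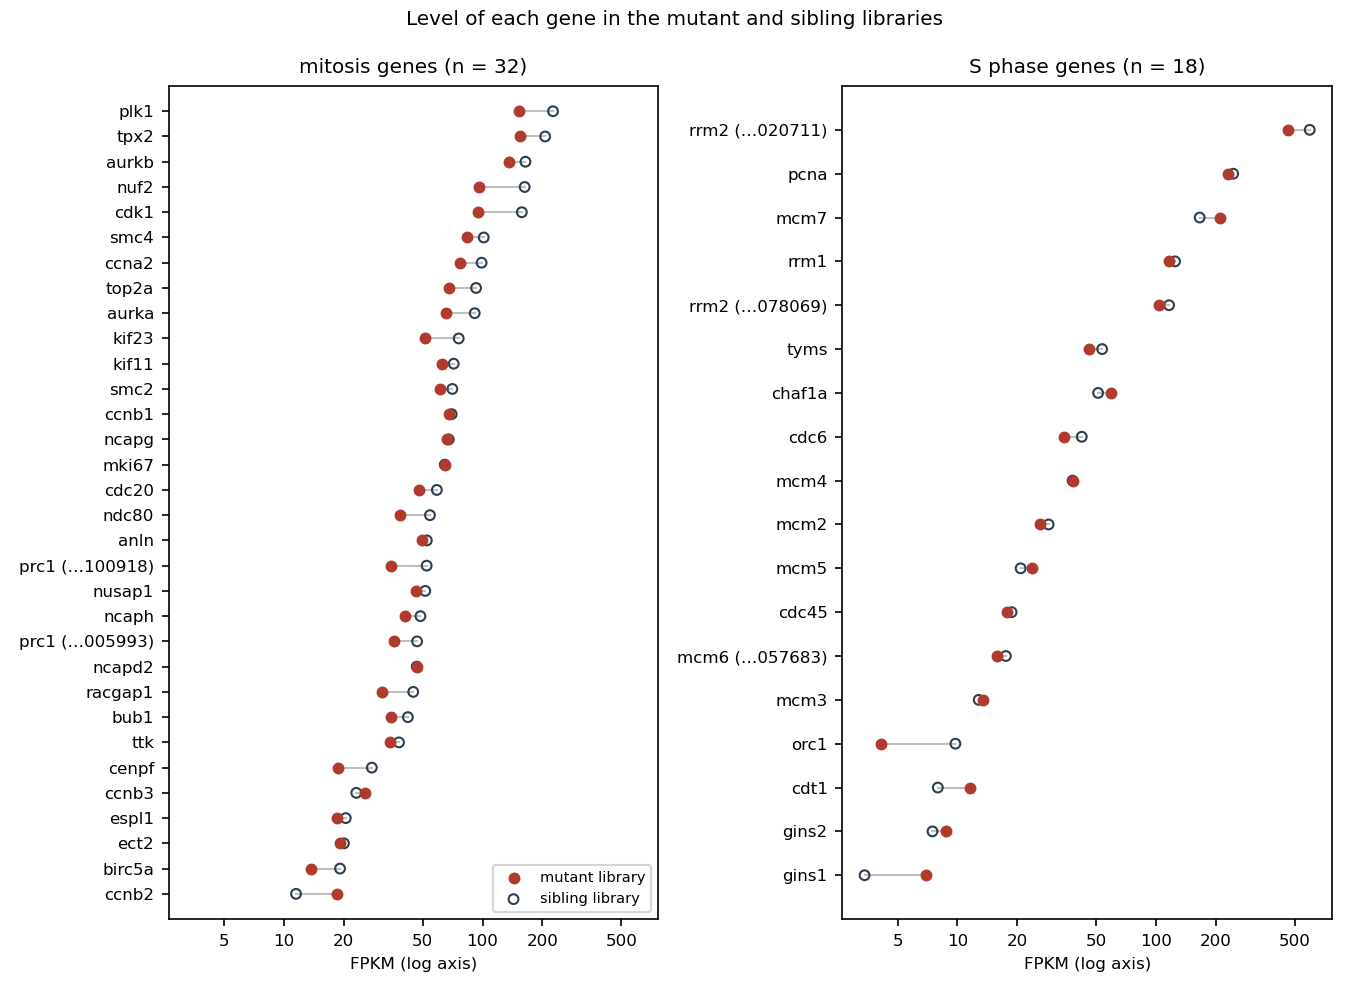
FPKM (x axis, log scale) of each gene in the mutant library (filled) and the sibling library (open), ordered by the sibling level within mitosis and S phase. Most mitosis genes have the filled point on the left, whereas S phase genes have it on either side. The wide gap of orc1 (4.13 and 9.77 FPKM) comes with a listed length that differs between the tables.

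Ordered by FPKM, the mitosis genes spanned 13.6 (birc5a) to 154 (tpx2) in the mutant and 11.5 (ccnb2) to 226 (plk1) in the sibling library. S phase genes that met the limits spanned 4.13 (orc1) to 459 FPKM in the mutant and 3.41 (gins1) to 593 FPKM in the sibling. The median mitosis gene was at 48.6 FPKM in the mutant and 56.6 FPKM in the sibling, above the median S phase gene at 30.2 and 33.4 FPKM. By FPKM + 1, the genes at least 1.5-fold lower were cdk1, nuf2 and orc1 (3.15% of all genes) and those higher were gins1 and ccnb2 (23.6% of all genes). By that measure kif23 and the lower prc1 gene, which met the limit in counts, did not, while the prc1 gene met it with a pseudocount of 0.1 in place of 1. orc1 met the 5 FPKM limit in the sibling library alone (4.13 FPKM in the mutant and 9.77 FPKM in the sibling). It was therefore kept only through the library where its FPKM is high. Listed lengths differed by over 10% for 7 of the 51 genes, among them orc1, cdt1, ccnb2 and plk1, and were identical for 20.

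Further genes of the same processes gave a smaller gap between mitosis and S phase. In a list of 68 other mitosis names, 59 genes met the limits, with a median log2 ratio of -0.21. Of these, 5 were at least 1.5-fold lower and none higher, and 51 were under a ratio of 1, beside 3.59%, 25.7% and 24.6% of all genes. With TMM 21 were lower and none higher, with a median of -0.49. The lowest were cenph, a kinetochore gene with 26 counts in the mutant and 37 in the sibling, kif18a, a kinesin that aligns chromosomes (268 and 377 counts; 0.652, 0.555 to 0.764), cdca8, and cks2, a subunit of Cdk1 complexes (234 and 326 counts; 0.658, 0.554 to 0.781). cenph met the 5 FPKM limit in the sibling library alone (4.04 and 6.24 FPKM in mutant and sibling). The list of other S phase genes had 42 that met the limits, with a median of -0.11. Of these, 1 was 1.5-fold higher, orc2 at 37 and 17 counts (1.996, 1.096 to 3.78), kept only through the mutant library (5.88 and 2.93 FPKM). None of the 42 was 1.5-fold lower, and 27 were under a ratio of 1. With TMM 7 were lower and 1 higher, with a median of -0.38, where 9.02% and 13.6% of all genes were lower and higher. cdc7, the kinase that fires origins, and rpa3, of the single-strand binding protein, were lowest at 0.697 and 0.705. The gap of these medians was -0.10, and the mitosis gene was lower in 67.3% of the 2478 pairs.

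Regulators of entry into the cycle had a median above 0 but, like the genes above, below that of all genes. Expressed genes for cyclin D and E, their kinases, E2F, Rb and Myc numbered 21, with a median of 0.16. Past 1.5-fold, 4 were higher and none lower, beside 25.7% and 3.59% of all genes. mych had 715 counts in the mutant and 332 in the sibling (1.97, 1.73 to 2.26), e2f2 156 and 91 (1.57, 1.21 to 2.06), a myc gene (ENSDARG00000007241) 593 and 349 (1.56, 1.36 to 1.78) and mycn 590 and 360 (1.503, 1.32 to 1.72). Intervals lay wholly below 1 for 3 of the 21 and wholly above 1 for 7, beside 8.99% and 46.1% of all genes. Those below were cdk2, the kinase of cyclin E, at 0.681 (0.554 to 0.835), its cyclin ccne2 at 0.763 (0.690 to 0.844) and the repressor e2f8 at 0.823 (0.738 to 0.918). These 3 were named after their values were seen. The median of 18 inhibitors of cyclin-dependent kinases and other genes of cycle exit was 0.27, close to that of all genes. Of these, 5 were at least 1.5-fold higher, near the share of 25.7% over all genes. A cdkn1b gene (ENSDARG00000029018), for an inhibitor of the p27 type, was highest with 228 and 71.1 counts (2.94, 2.25 to 3.90), while the other cdkn1b gene had a ratio of 0.982. It was followed by 3 gadd45 genes, growth arrest genes induced by stress, at 2.14, 1.60 and 1.505. With TMM the medians of these lists were -0.12 and -0.01, with 1 gene higher and 2 lower in the first and 2 of each in the second, shares to be set beside 13.6% higher and 9.02% lower over all genes.

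Markers of several cell types also differed between the libraries, some lower and some higher in the mutant. Their part in the mitosis and S phase values was not tested. The 16 erythroid genes found from 18 names had a median ratio of 0.840, over the 15 that met the limits. Of the 15, counting intervals lay wholly below 1 for 12 and wholly above 1 for 3, beside 8.99% and 46.1% of all genes. Those above were gata1a at 1.206, blf at 1.237 and klf1 at 1.249. The 16 erythroid genes had summed levels of 280700 FPKM in the mutant and 369000 FPKM in the sibling. The 14 skeletal muscle genes summed to 304 and 1064 FPKM and the 12 epidermal genes to 828 and 1290 FPKM. Summed levels were higher in the mutant library for the endothelial genes given above, for 11 blood stem and progenitor genes (179 and 119.5 FPKM) and for 11 myeloid genes (1169 and 865 FPKM). Among genes that met the limits, 0 of 7 blood stem and 2 of 7 myeloid genes had a ratio under 1, beside 24.6% of all genes. With genes below the limits included, these were 1 of 11 and 6 of 11. The 19 genes of the neural and retinal progenitor list summed to 480 FPKM in the mutant and 422 FPKM in the sibling. Of the 14 that met the limits, 2 had a ratio under 1, beside 24.6% of all genes. With genes below the limits included, this was 5 of 19. Listed at 0 were 1 myeloid and 1 neural gene in the mutant library and 1 erythroid gene in the sibling library, each a further gene of a symbol shared with an expressed one.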

How the data were processed

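Each deposited table holds 1 library, listing for every Ensembl gene a length, an expected count and an FPKM. The submitters' processing notes name RSEM, Bowtie2, BWA and bcl2fastq 2.16 and the build GRCz10 but not what each tool did. The annotation release is not given in the sources used here. Expected counts were deposited by the authors unscaled. The deposited FPKM is the authors' own and was not scaled between libraries. Length is listed per library as a mean over isoforms, so FPKM can differ where counts do not. The protocol in the labels names no strand-marking step, so overlapping antisense transcripts cannot be told apart from a gene.

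Symbols came from a table of Ensembl identifiers that named 19802 of 21699 genes (91.3%), with case ignored. A gene listed in 1 table alone was set to 0 in the other. Ratios of rounded expected counts per library total were given exact conditional binomial 95% intervals with scipy 1.17.1, which hold counting error alone. With 1 library per group, variation between embryos or library preparations could not be estimated. Without molecular identifiers PCR duplicates cannot be recognised, and some reads were divided between genes, so the intervals can be too narrow even for counting error. The tables also allowed log2 of FPKM + 1 and TPM. TMM factors came from edgeR 4.0.16. With 1 library per group there was no test between conditions. The code was checked on simulated counts.

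Members, lists and the 1.5-fold limit were chosen with earlier results of these data known. The genes named are the 6 lowest and 4 highest mitosis and the 4 lowest and 4 highest S phase members, up to 4 of each further list, and cdk1, pcna, mki67, top2a and gbf1. Other members are given by role. spc24, spc25, zwilch, gins4, cdk2, ccne2, e2f8, gata1a, blf, klf1 and the cdkn1b gene with a ratio of 0.982 fall outside this rule. They were named after their values were seen.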

Additional observations from a re-analysis of the deposited data

How the results depend on the processing

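No paired analysis was possible because each group has 1 library, and for the same reason no library could be left out. The cause was not tested for any change below, other than through the construction of each setting. The median log2 ratio of mitosis genes was -0.27, and it was -0.55 with TMM, -0.56 with median of ratios, -0.45 without the 10 highest genes, -0.55 centred on the median gene, -0.12 in TPM, -0.21 with symbols as written and -0.24 without shared symbols. The S phase median of -0.04 was -0.32, -0.33, -0.22 and -0.32 under those 4 scalings, -0.0798 and -0.0819 by FPKM with a pseudocount of 1 and 0.1, 0.0707 in TPM, -0.00267 without a filter, -0.0893 with at least 100 counts, 0.0590 without shared symbols, -0.0882 without differing lengths and 0.0282 without rrm2. The gap of -0.23 was -0.17 with symbols as written, -0.30 without shared symbols, -0.30 without rrm2 and -0.10 in the wider lists, the last 2 settings chosen after seeing the data. Mitosis genes at least 1.5-fold lower, 4 in the main count, numbered 14 with TMM, median of ratios or centring, 12 without the 10 highest genes, 2 by FPKM + 1, 1 in TPM and 0 at a 2-fold limit. Of all 8641 genes, 310 were lower in the main count, 779 with TMM, 809 with median of ratios and 780 with centring. Without the 10 highest genes 533 were lower, by FPKM 272 and 334 with a pseudocount of 1 and 0.1, in TPM 185 and at 2-fold 113. S phase genes lower numbered 1 with median of ratios, centring, FPKM with either pseudocount and TPM, against 0. Members higher, 1 in the main count, numbered 2 by FPKM or without a filter, 3 in TPM and 0 with at least 100 counts, where gins1 is not kept. Of all 8641 genes, 2224 were higher in the main count, 2039 and 2316 by FPKM with a pseudocount of 1 and 0.1, and 2884 in TPM. Shares over all genes were not taken without a filter or with at least 100 counts. Of 242 values of 21 named genes, 76 moved beyond the counting interval. Settings that only changed which genes were kept leave a gene's value as it is. Only the scalings and the FPKM and TPM measures could therefore move one. A change of sign was counted only for genes past 1.5-fold, and 0 values changed. No scaling could change the sign of such a gene, because each shifts all log2 ratios alike, by -0.289 at most. Only for the FPKM and TPM measures was this outcome open. Genes nearer to a ratio of 1 did change sign, such as mcm7 (log2 0.236, -0.042 with TMM) and pcna (-0.087, 0.074 in TPM). At these depths genes under 100 counts have wide intervals, such as gins2 (0.741 to 1.87).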
